A study of Homo sapiens with 20 samples.

Results

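Expression of 8 genes that write, place or erase DNA methylation (DNMT1, DNMT3A, DNMT3B, UHRF1, UHRF2, TET1, TET2 and TET3) was followed by RNA-seq in LNCaP, an androgen-responsive human prostate adenocarcinoma line. The genes were chosen by symbol, 8 of the 57773 genes in each of 2 count tables, and all 8 were present and passed the filter on low counts in every comparison. In the first experiment, LNCaP cells received 20 nM of a pooled siRNA against EHMT1 (siEHMT1) or of nontarget control siRNA (siNTC) for 2 days, with 2 samples each. In the second, 4 LNCaP lines carried a puromycin-selected lentiviral, tetracycline-inducible EHMT1 open reading frame with a V5 tag, either wild-type (WT) or with lysine replaced by arginine (K450R, K451R or both, K450RK451R), and were left uninduced (Veh) or given 0.25 µg/mL of doxycycline (Dox) for 2 days. EHMT1 is a histone H3 lysine 9 methyltransferase, and all 4 lines keep their own EHMT1 gene beside the construct. Each construct was represented by 1 line, and whether a line is a clone or a pool is not given in the sources used here. The study made these samples to ask what EHMT1 and the replaced lysines do to transcription.

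Methylated cytosines in CpG pairs are copied after DNA replication by DNMT1, which UHRF1 brings to newly replicated DNA, while DNMT3A and DNMT3B lay down new marks. TET1, TET2 and TET3 oxidize the methyl group, and base excision repair can then return the plain cytosine. DNMT1 and UHRF1 are known to be made mostly in dividing cells, and prostate tumours often silence genes such as GSTP1 by promoter methylation.

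The 2 columns deposited for each stable-line condition differed by no more than counting noise (chi-square per degree of freedom 0.995 to 1.02) and were summed and counted as 1 library, whereas the siRNA replicates differed by far more (61.6 for siNTC and 13.4 for siEHMT1). This left 12 libraries, with total counts of 5593400 to 12438006 in the siRNA samples and 8436791 to 12407739 in the stable lines. siNTC replicate 2 stood apart, with the lowest total and 8.39% of its counts on AC010970.2, a gene that resembles ribosomal RNA and took 0.0212% to 0.826% elsewhere. Mitochondrial MT-RNR2 took 20.7% to 25.5% of the siRNA libraries and 7.26% to 13.1% of the stable-line libraries. All 9 luminal prostate markers checked were detected in every library. Of 7 markers of other cell types, COL1A2, PTPRC, KRT5, TP63 and CHGA had no counts in any library, and VIM and COL1A1 were detected in all. EHMT1 was at 82.4 and 77.7 CPM (counts relative to library size, scaled by the TMM method over the 12 libraries) in siNTC and at 27.6 and 28.8 CPM in siEHMT1. It was at 74.45 to 90.2 CPM in the 4 Veh libraries and at 678.9 to 862.2 CPM in the 4 Dox libraries, a count that joins the endogenous and introduced transcripts.

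DNMT1 was the most abundant of the 8 genes per length of transcript. Mean CPM per kilobase of the canonical transcript in siNTC was 25.02 for DNMT1, followed by UHRF2 (8.90), UHRF1 (5.33), TET3 (3.69), TET2 (2.83), DNMT3B (2.83), DNMT3A (1.55) and TET1 (0.677). In the uninduced lines, mean CPM per kilobase was 14.95 for DNMT1, then 11.8 for UHRF2, 3.46 for TET2, 2.62 for UHRF1, 2.51 for DNMT3A, 2.17 for TET3, 1.81 for DNMT3B and 1.24 for TET1. DNMT1 and UHRF2 led and TET1 was last in both experiments, and the 5 genes between them changed places. The ranges of DNMT1 (13.4 to 16.8 CPM per kilobase) and UHRF2 (9.88 to 13.3) over the 4 uninduced lines did not overlap, whereas those of UHRF1 (1.78 to 3.44) and DNMT3A (2.06 to 2.85) did.

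Only DNMT1 and UHRF1 held an E2F-type sequence in their annotated promoters, and these promoters are printed because they hold the match. DNMT1, UHRF1, TET3 and DNMT3B were at lower levels in the uninduced lines than in siNTC, as were 30.1% of all genes tested. Whether such a sequence bears on these levels was not tested. E2F factors switch on genes for DNA replication. The words TTTCCCGC, TTTCGCGC, TTTGCCGC and TTTGGCGC were searched on both strands in RefSeq promoter windows of 300 bases, 250 before and 50 after an annotated start (GRCh38.p14). Of 35116 windows, 3.31% held at least 1 of these words. Among the 19 windows of the 8 genes, 3 did, and capitals mark the match. Each word holds a CpG pair, and the shares over all windows and genes were not matched for CpG count. The DNMT1 window (chr19:10194904-10195203, minus strand) has TTTCGCGC on its reverse strand, beginning 2 bases before the start. The first UHRF1 window (chr19:4909251-4909550, plus strand) has TTTCCCGC on its reverse strand 14 bases before its start, and the second (chr19:4909894-4910193, plus strand) has TTTCGCGC on its forward strand 160 bases before its start.
DNMT1: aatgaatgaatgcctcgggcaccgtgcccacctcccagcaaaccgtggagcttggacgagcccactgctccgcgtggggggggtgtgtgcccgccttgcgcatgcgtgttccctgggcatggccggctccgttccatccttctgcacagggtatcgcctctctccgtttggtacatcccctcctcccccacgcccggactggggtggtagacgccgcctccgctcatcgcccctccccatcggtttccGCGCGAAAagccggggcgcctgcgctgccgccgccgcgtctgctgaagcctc
UHRF1 window 1: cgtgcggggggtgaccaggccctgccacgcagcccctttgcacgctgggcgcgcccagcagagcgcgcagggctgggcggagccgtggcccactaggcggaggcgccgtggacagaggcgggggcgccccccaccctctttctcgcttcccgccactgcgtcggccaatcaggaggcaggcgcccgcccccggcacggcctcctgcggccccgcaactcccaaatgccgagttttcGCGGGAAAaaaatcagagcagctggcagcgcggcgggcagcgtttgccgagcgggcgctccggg
UHRF1 window 2: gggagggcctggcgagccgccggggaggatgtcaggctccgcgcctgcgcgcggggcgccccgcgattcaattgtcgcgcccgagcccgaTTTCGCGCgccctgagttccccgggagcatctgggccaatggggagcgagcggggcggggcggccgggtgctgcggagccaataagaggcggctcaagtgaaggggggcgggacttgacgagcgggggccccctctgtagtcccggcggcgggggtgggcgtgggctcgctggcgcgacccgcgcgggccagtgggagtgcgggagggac
By gene, 3.99% of 27305 genes held a word in at least 1 window, and 10 of 20 genes matched from a list of S-phase and proliferation genes did. CpG pairs, the substrate of these enzymes, numbered 30 in the DNMT1 window and 36, 40 and 46 in the 3 UHRF1 windows, against a median of 14 over all windows. They numbered 45 and 33 in the windows of TET3, 26 in the window of UHRF2, 3 in the window of DNMT3B and 6 to 11 in the 3 windows of TET1. A match in these windows is a description of the letters and not evidence of binding in these cells.

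DNMT1 (minus strand of chromosome 19, 10244018 to 10341962 on GRCh37) had 142 and 122 CPM in siNTC and 118 and 147 CPM in siEHMT1. The lower siEHMT1 value lay under both controls and the higher one above both, so the groups overlapped. Its log2 fold change with EHMT1 silencing was -0.0053 (SE 0.11, 95% interval -0.23 to 0.22, edgeR quasi-likelihood test, adjusted p = 0.995). In the stable lines, DNMT1 was at 73.2 CPM in uninduced and 77.0 in induced WT, 70.7 and 73.5 in K450R, 88.8 and 82.1 for K451R, and 82.6 and 87.0 in K450RK451R. WT, K450R and K450RK451R were slightly higher and K451R slightly lower with Dox, and the log2 fold change over the 4 lines was 0.02 (SE 0.07, interval -0.11 to 0.16, edgeR adjusted p = 0.913). In bulk RNA, fewer cells expressing a gene and less of its RNA per cell cannot be told apart.

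UHRF1 (plus strand of chromosome 19, 4903092 to 4962165), the reader that guides DNMT1, had 24.8 and 16.7 CPM in siNTC and 22.2 and 18.5 CPM in siEHMT1. Both siEHMT1 values fell between the controls, and the log2 fold change was -0.06 (SE 0.17, interval -0.42 to 0.30, edgeR adjusted p = 0.957). In the stable lines, UHRF1 was at 6.95 CPM in uninduced and 9.95 in induced WT, 10.0 and 8.08 in K450R, 10.5 and 13.3 for K451R, and 13.4 and 14.2 in K450RK451R. It spanned 2.05-fold over these 8 libraries, the widest span of the 8 genes, with both K450RK451R values above every WT and K450R value. Over the 4 lines, the log2 fold change with Dox was 0.17 (SE 0.16, interval -0.15 to 0.49, edgeR adjusted p = 0.678).

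UHRF2 (plus strand of chromosome 9, 6413151 to 6507054), a paralog of UHRF1, had 32.8 and 30.9 CPM in siNTC and 32.6 and 37.3 CPM in siEHMT1. Its log2 fold change with EHMT1 silencing was 0.13 (SE 0.12, interval -0.14 to 0.39, edgeR adjusted p = 0.793). It was at 47.5 CPM in uninduced and 38.5 in induced WT, 40.4 in both K450R libraries, 45.4 and 34.8 for K451R, and 35.3 and 32.9 in K450RK451R. The Dox value was lower in 3 lines and level in K450R, and the log2 fold change over the 4 lines was -0.20 (SE 0.09, interval -0.38 to -0.02, edgeR unadjusted p = 0.029, adjusted p = 0.27). This did not pass the test after adjustment over all genes.

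DNMT3A (minus strand of chromosome 2, 25450724 to 25565459), a de novo methyltransferase, had 14.7 and 14.5 CPM in siNTC and 15.3 and 18.2 CPM in siEHMT1. Both siEHMT1 values lay above the controls, with a log2 fold change of 0.19 (SE 0.17, interval -0.16 to 0.54, edgeR adjusted p = 0.758). It ranged from 19.4 to 26.9 CPM in the Veh libraries and from 22.3 to 27.2 CPM in the Dox libraries, and the log2 fold change with Dox was 0.11 (SE 0.11, interval -0.11 to 0.32, edgeR adjusted p = 0.703). DNMT3B (plus strand of chromosome 20, 31350191 to 31397165), the other de novo methyltransferase, had 14.6 and 9.92 CPM in siNTC and 13.1 and 13.3 CPM in siEHMT1. Its log2 fold change with EHMT1 silencing was 0.08 (SE 0.19, interval -0.33 to 0.48, edgeR adjusted p = 0.942). It was at 5.30 CPM in uninduced and 5.97 in induced WT, 6.92 and 6.88 in K450R, 9.21 and 8.52 for K451R, and 9.88 and 9.45 in K450RK451R. Dox moved DNMT3B little within each line compared with the spacing between WT and K450RK451R, and its log2 fold change over the 4 lines was -0.02 (SE 0.17, interval -0.37 to 0.34, edgeR adjusted p = 0.98).

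TET3 (plus strand of chromosome 2, 74212037 to 74335303), the most abundant of the 3 dioxygenases in siNTC, had 44.97 and 44.1 CPM in siNTC and 32.6 and 41.5 CPM in siEHMT1. Both siEHMT1 values lay below both controls, with a log2 fold change of -0.27 (SE 0.13, interval -0.54 to -0.0088, edgeR unadjusted p = 0.0435, adjusted p = 0.508). This rested on siEHMT1 replicate 1, without which the log2 fold change was -0.11 (edgeR adjusted p = 0.846). In the stable lines, TET3 was at 22.6 CPM in uninduced and 25.7 in induced WT, 24.4 and 29.7 in K450R, 26.5 and 30.05 for K451R, and 31.4 and 34.6 in K450RK451R. Dox was the higher of the 2 in each line, with a log2 fold change of 0.20 (SE 0.09, interval 0.0045 to 0.39, edgeR unadjusted p = 0.0452, adjusted p = 0.331). TET3 was the 1 gene of the 8 that was higher in all 4 lines, as were 10.6% of all genes tested.

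TET1 (plus strand of chromosome 10, 70320094 to 70454244) had 5.68 and 7.35 CPM in siNTC and 7.88 and 5.76 CPM in siEHMT1, so the groups overlapped (log2 fold change 0.07, SE 0.25, interval -0.46 to 0.60, edgeR adjusted p = 0.965). It was at 12.4 CPM in uninduced and 12.05 in induced WT, 9.75 and 15.0 in K450R, 13.25 and 11.85 for K451R, and 12.4 and 9.05 in K450RK451R. It was higher with Dox in K450R and lower in the other 3 lines, and the log2 fold change over the 4 lines was -0.02 (SE 0.16, interval -0.35 to 0.30, edgeR adjusted p = 0.972). COX20P1, a pseudogene that overlaps TET1 on the same strand, had 495 counts over the 12 libraries, and how reads in the overlap were assigned is not given in the sources used here. TET2 (plus strand of chromosome 4, 106067032 to 106200973) had 26.4 and 27.9 CPM in siNTC and 27.8 and 25.8 CPM in siEHMT1, with a log2 fold change of -0.03 (SE 0.13, interval -0.30 to 0.25, edgeR adjusted p = 0.975). It was at 35.6 CPM in uninduced and 27.6 in induced WT, 35.3 and 38.01 in K450R, 34.6 and 31.7 for K451R, and 27.4 and 24.45 in K450RK451R. The log2 fold change with Dox was -0.13 (SE 0.09, interval -0.33 to 0.06, edgeR adjusted p = 0.57), and TET2-AS1, which overlaps TET2 on the opposite strand, had no counts in any library.

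**Figure D1:**
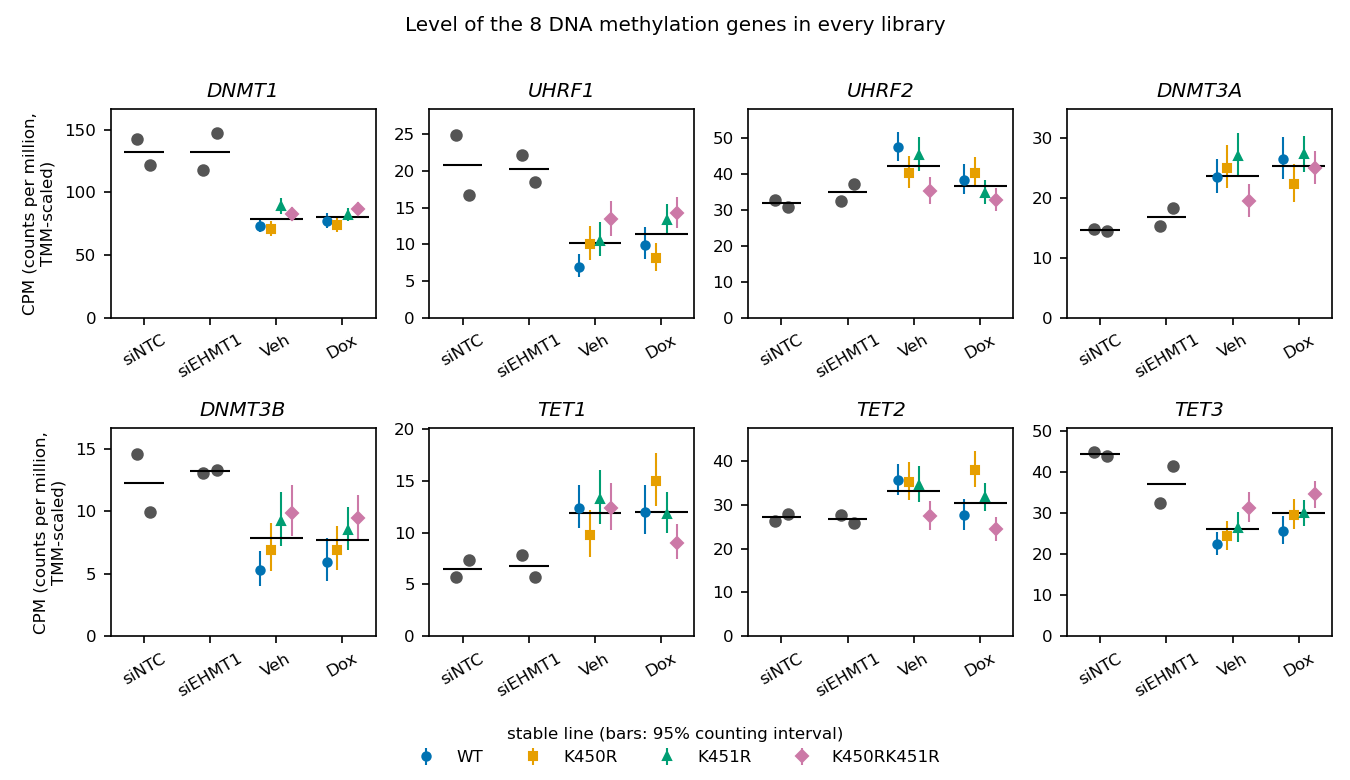
Level of each gene in every library, as TMM-scaled CPM on linear axes that start at 0. Grey points are the 2 siRNA samples of a group, coloured points the 4 stable lines with 95% counting intervals, and black lines the group means; the siNTC and siEHMT1 points overlap in 6 panels and not in those of TET3 (44.1 to 44.97 against 32.6 to 41.5 CPM) and DNMT3A (14.5 to 14.7 against 15.3 to 18.2 CPM).

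None of the 8 genes passed the test with EHMT1 silencing, where 0.131% of the 14532 genes tested did (19 genes, 9 higher and 10 lower). At an unadjusted p under 0.05, 1 of the 8 passed (TET3), against 9.55% of all genes, and 2 of the 8 (TET3 and DNMT3A) had groups that did not overlap, against 39.7% of all genes. The median log2 fold change was 0.03 over the 8 genes and -0.0021 over all genes. The 95% intervals of the 8 genes lay between -0.54 and 0.60, so a 2-fold change in either direction was outside each of them. EHMT1 itself fell by 1.51 on the log2 scale (edgeR adjusted p = 1.48e-07).

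None of the 8 passed the test with Dox over the 4 lines either, where 2.11% of 14105 genes did (298 genes, 85 higher and 213 lower). At an unadjusted p under 0.05, 2 of the 8 passed (UHRF2 and TET3), against 14.4% of all genes. The median log2 fold change was 0.0027 over the 8 genes and 0.0050 over all genes, and the intervals of the 8 lay between -0.38 and 0.49. The count of all genes called depended on the lines, from 114 without K451R and 122 without K450R to 501 without WT, and the count of the 8 stayed at 0. EHMT1 rose by 3.23 on the log2 scale (edgeR adjusted p = 1.02e-23).

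The response to Dox of the 3 mutant lines minus that of WT was tested as an interaction. It asks whether the 3 lines, pooled, differ from the WT line in their response to Dox. None of the 8 genes passed, and 0.163% of all genes did (23 genes). At an unadjusted p under 0.05 none of the 8 passed either, against 7.1% of all genes. The estimates furthest from 0 were UHRF1 (log2 difference -0.43, SE 0.38, interval -1.19 to 0.34, edgeR adjusted p = 0.873) and TET2 (0.33, SE 0.21, interval -0.10 to 0.76, edgeR adjusted p = 0.792). The intervals of UHRF1 and DNMT3B (-1.11 to 0.67) reached past a 2-fold lower response in the mutants, so a difference of that size was not excluded for these 2 genes. The lone WT line was assumed to vary like the mutants. With 1 line a construct, an effect of the replaced lysines cannot be told apart from a difference between lines. All lines given Dox carried an EHMT1 construct, so an effect of doxycycline itself cannot be told apart from EHMT1 induction. The K450RK451R line alone against WT was not tested.

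**Figure D2:**
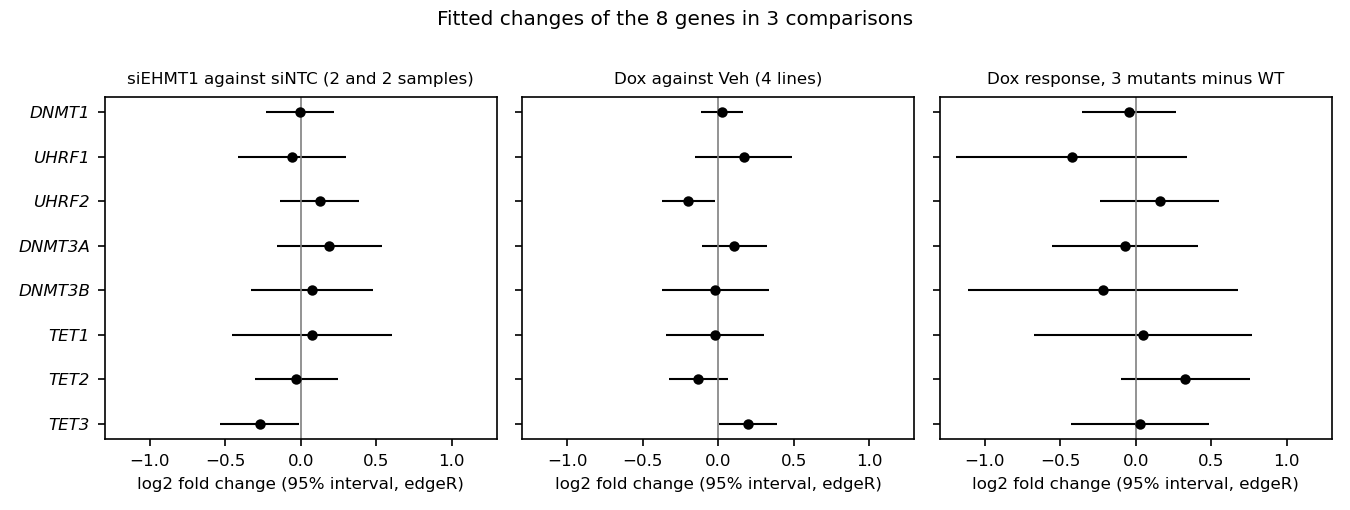
Log2 fold changes of the 8 genes with 95% intervals from edgeR, for siEHMT1 against siNTC, Dox against Veh over the 4 lines, and the Dox response of the 3 mutant lines minus that of WT. Points right of 0 are higher in the first-named group; the intervals stay within -0.54 and 0.60 in the first panel and -0.38 and 0.49 in the second, and are widest in the third.

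Within a line there was 1 library a condition and so no test. Of the 32 pairs of a gene and a line, 1 was past 1.5-fold (TET1 in K450R, 1.56-fold higher with Dox, from 76 to 137 counts, 95% counting interval 1.17 to 2.09), and between 11.2% (WT) and 13.5% (K450RK451R) of all genes were past it in each line. TET1 in K450RK451R went the other way (0.726-fold, interval 0.556 to 0.945). The counting interval left out 1-fold for 8 of the 32 pairs, and the share of all genes for which it does so was not computed. Besides the 2 for TET1 these were DNMT3A in K450RK451R (1.275-fold), UHRF1 in WT (1.42-fold), UHRF2 in WT (0.803-fold) and K451R (0.775-fold), TET2 in WT (0.769-fold) and TET3 in K450R (1.24-fold). These intervals cover counting error only.

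**Figure D3:**
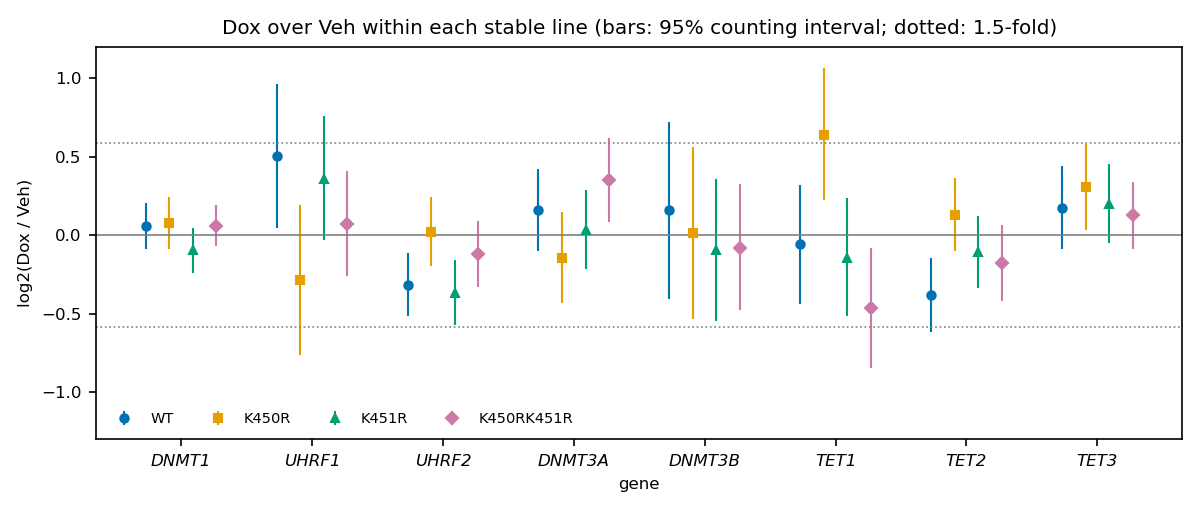
Log2 ratio of Dox to Veh for each gene within each of the 4 stable lines, with exact 95% counting intervals; dotted lines mark 1.5-fold. TET1 in K450R is the 1 point past the dotted lines (1.56-fold), and TET3 is the 1 gene with all 4 points above 0.

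None of the 8 genes passed a test of differences among the 4 lines. With Veh and Dox of a line taken as its 2 samples, a comparison added after the data were seen, UHRF1 was 0.75 higher on the log2 scale in K450RK451R than in WT, and 0.11 and 0.53 higher in K450R and K451R (edgeR test of any difference among the 4 lines, unadjusted p = 0.00572, adjusted p = 0.11). DNMT3B was 0.31, 0.66 and 0.81 above WT in K450R, K451R and K450RK451R (edgeR adjusted p = 0.17). TET3 was 0.17, 0.23 and 0.47 above WT in the same order (edgeR adjusted p = 0.155), and TET2 was 0.22 and 0.06 above WT in K450R and K451R and lower in K450RK451R, with a log2 difference of -0.28 (edgeR adjusted p = 0.144). With DNMT1 (edgeR unadjusted p = 0.0238), 5 of the 8 genes had an unadjusted p under 0.05, against 15.2% of all genes. None passed after adjustment, against 3.05% of all genes. The unadjusted count depended on the tool and on 1 line. With DESeq2, only UHRF1 was under 0.05 (DESeq2 unadjusted p = 0.0384). Without K450RK451R, only DNMT1 and DNMT3B were (edgeR unadjusted p = 0.0344 and 0.0477), and UHRF1, TET2 and TET3 were not (0.0614, 0.256 and 0.241). Each construct was carried by 1 line, so the construct and the line cannot be told apart.

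Ratios of counts within a library do not depend on how libraries are scaled. UHRF1 made up 43.1% and 35.1% of the UHRF1 and UHRF2 counts in siNTC and 40.5% and 33.1% in siEHMT1. In the stable lines this share was 12.8% in uninduced and 20.5% in induced WT, 19.9% and 16.7% in K450R, 18.7% and 27.6% for K451R, and 27.5% and 30.2% in K450RK451R. All 8 stable-line shares lay below all 4 siRNA shares. Between the uninduced lines and siNTC, the levels of 68.4% of all genes tested did not overlap either. How often shares within other gene families part in this way was not computed. DNMT3B made up 40.6% to 49.85% of the DNMT3A and DNMT3B counts in the siRNA libraries and 18.4% to 33.8% in the stable lines, again without overlap. TET3 made up 47.8% to 58.3% of the 3 TET genes' counts in the siRNA libraries and 32.0% to 50.8% in the stable lines, where the induced K450RK451R library passed the lower siEHMT1 library. DNMT1 made up 80.6% to 83.3% of the counts of the 3 methyltransferases in the siRNA libraries and 68.9% to 73.8% in the stable lines.

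**Figure D4:**
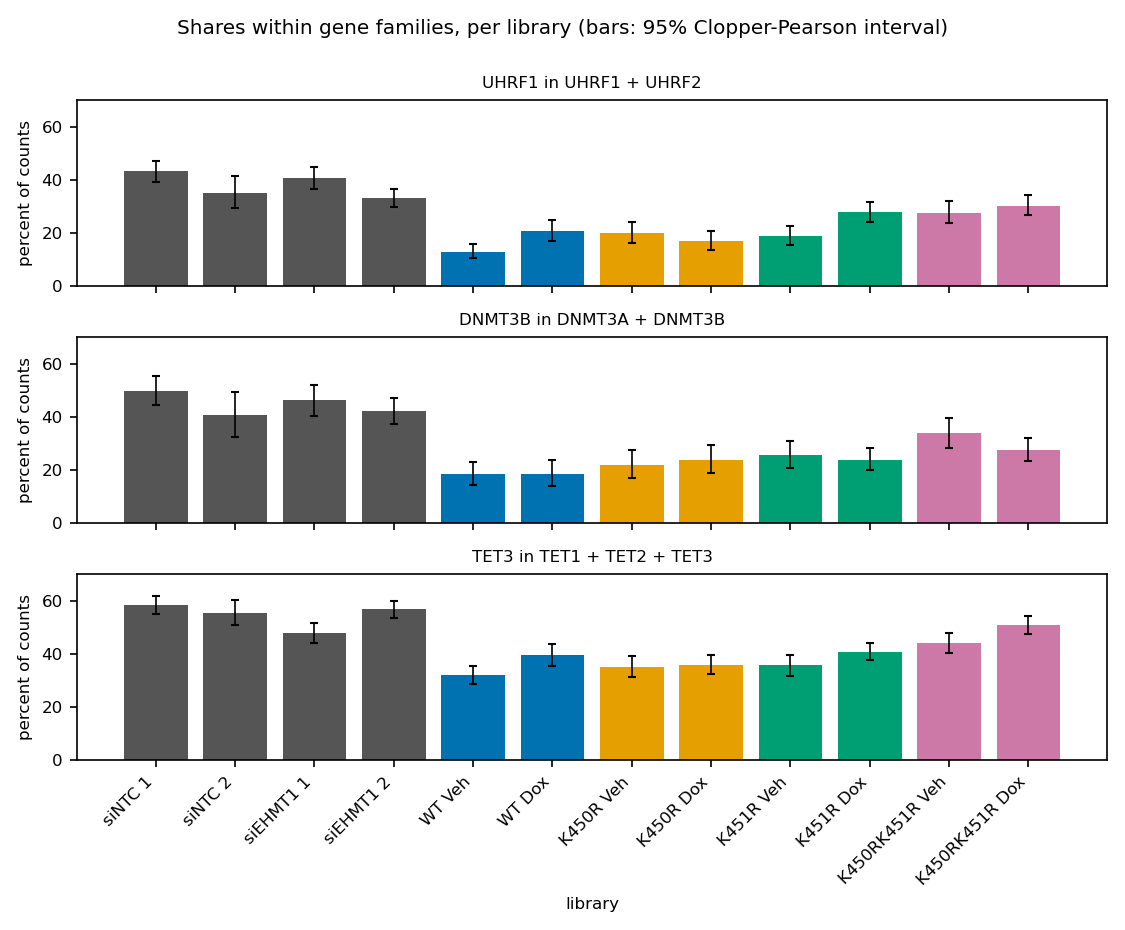
Share of counts, in percent, taken by UHRF1 of the 2 UHRF genes, by DNMT3B of the 2 de novo methyltransferases and by TET3 of the 3 TET genes in each of the 12 libraries, with 95% Clopper-Pearson intervals. Grey bars are the siRNA samples and coloured bars the stable lines; the UHRF1 share is 33.1% to 43.1% in grey bars and 12.8% to 30.2% in coloured ones.

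The levels of the 8 genes were also compared between the 2 experiments. When the 4 uninduced lines were set against the 2 siNTC samples, a comparison added after the data were seen, 7 of the 8 genes passed the test, but so did 59.7% of the 14681 genes tested. Of the 8 genes, 3 were higher, against 29.6% of all genes, and 4 were lower, against 30.1%. Transfection, the inserted construct, puromycin selection, tetracycline-free serum, MT-RNR2 content and the sequencing of the 2 tables differed together with the groups and cannot be told apart. VIM and COL1A1, the mesenchymal markers with counts, were also higher in the uninduced lines (log2 fold change 2.54 and 1.26, edgeR adjusted p = 5.68e-13 and 4.28e-08), and their part in these results was not tested. UHRF1 was lower in the uninduced lines (log2 fold change -1.10, SE 0.21, edgeR adjusted p = 0.000102), as were TET3 (-0.80, SE 0.13, adjusted p = 1.31e-05), DNMT1 (-0.78, SE 0.10, adjusted p = 5.65e-07) and DNMT3B (-0.74, SE 0.23, adjusted p = 0.00996). TET1 was higher (0.88, SE 0.21, edgeR adjusted p = 0.00123), with DNMT3A (0.65, SE 0.15, adjusted p = 0.000876) and UHRF2 (0.36, SE 0.12, adjusted p = 0.0138), and TET2 did not pass (0.25, interval -0.0077 to 0.52, adjusted p = 0.0877). No siNTC value overlapped the Veh values for 7 of the 8 genes, against 68.4% of all genes. Without siNTC replicate 1, which leaves the shallow replicate 2 as the lone control, 3 of the 8 passed (DNMT1, DNMT3A and TET3), and without siNTC replicate 2 UHRF2 was lost.

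Genes linked to methylation maintenance, only some of them replication-fork proteins, were described by lists chosen with earlier results of these data known. Of 12 maintenance partners, 6 were lower and 1 higher in the uninduced lines than in siNTC, where 30.1% of all genes tested were lower and 29.6% higher (median log2 fold change -0.24, against 0.0065 over all genes). Among them, CDCA7 fell by 2.00 and HELLS by 1.06 on the log2 scale, which together form a remodeler that opens chromatin for methylation, and PCNA fell by 1.61 and USP7, a deubiquitinase that stabilizes UHRF1 and DNMT1, by 0.90 (edgeR adjusted p from 1.79e-11 to 3.67e-06). The other lower ones were SETD7 (-0.54) and HDAC1 (-0.26), and the higher one was CDCA7L (0.675). LIG1 (0.105) and PCLAF (0.03), 2 fork proteins of the list, did not pass. Of 25 S-phase and proliferation genes, 16 were lower and 3 higher, against the same 30.1% and 29.6% of all genes (median -0.76). The lower ones included the helicase subunits MCM3 (-1.64) and MCM4 (-1.31), CDC6 (-1.54) and cyclin E2, CCNE2 (-2.37), each with an edgeR adjusted p of 1.37e-09 or less. The 3 higher ones were TOP2A (0.69), RRM1 (0.37) and CDT1 (0.235), and the proliferation marker MKI67 did not pass (-0.06, edgeR adjusted p = 0.719). The mean log2 CPM of the 25 genes was 5.87 to 5.94 in the siRNA libraries and 5.23 to 5.47 in the stable-line libraries.

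Of 15 genes that supply methyl donor or cofactor, 5 were higher and 8 lower in the uninduced lines, against 29.6% and 30.1% of all genes. MAT2A, which makes the methyl donor S-adenosylmethionine, fell by 2.74 on the log2 scale, from 99.5 and 89.6 CPM in siNTC to 12.4 to 16.9 CPM in the Veh libraries (edgeR adjusted p = 1.69e-14), and SHMT2 rose by 1.42. Of 14 demethylation and base excision genes tested, 4 were higher and 4 lower, 8 of the 14 against 59.7% of all genes. The higher ones were GADD45B (log2 fold change 4.56), GADD45G (2.96), GADD45A (2.86) and CXXC5 (1.83), stress-response genes and a zinc-finger gene linked to TET2, whereas TDG, the glycosylase that removes oxidized methylcytosine, fell by 1.03 (edgeR adjusted p = 5.82e-07). Of 8 methyl-CpG readers 3 were higher and 2 lower, against the same background, among them ZBTB4 (0.61) and MBD3 (-0.34), and of 5 de novo cofactors tested ZBTB24 was lower (-1.25) and SETD2 higher (0.44).

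**Figure D5:**
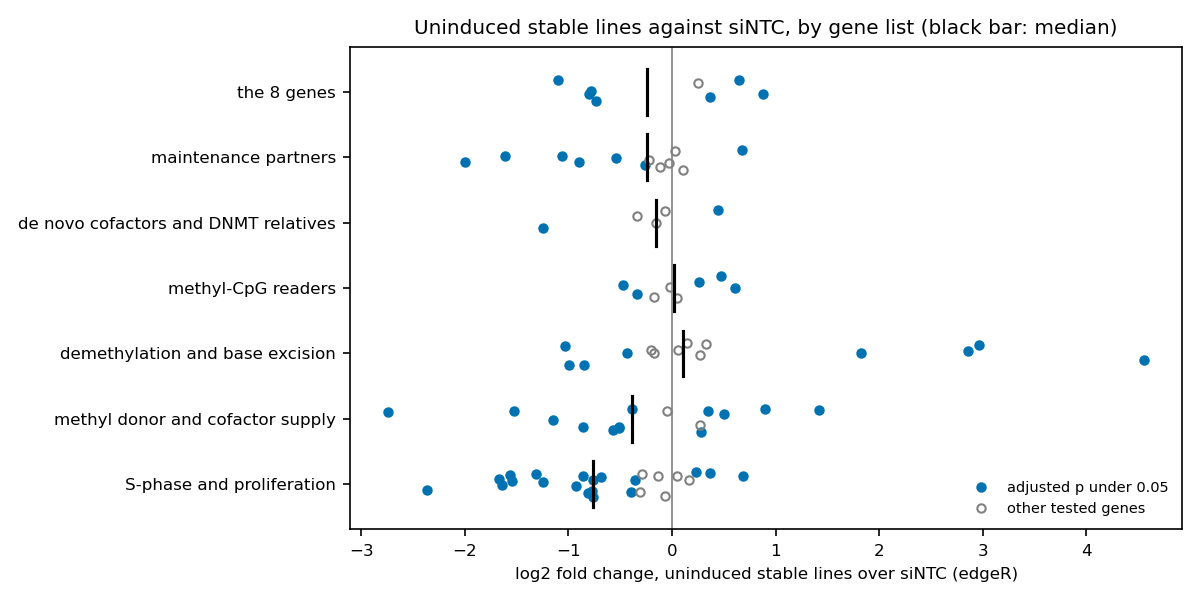
Log2 fold change of uninduced lines over siNTC for the 8 genes and 6 lists of related genes, 1 point a gene; filled points have an adjusted p under 0.05 and black bars mark each list's median. The S-phase list has the lowest median (-0.76), and the demethylation list holds the highest single value (GADD45B, 4.56).

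With EHMT1 silencing, no gene of these 6 lists passed the test. Among the genes with the lowest p-values were APEX1 (log2 fold change -0.39, edgeR adjusted p = 0.15), HDAC2 and USP7 (-0.21 and -0.22, adjusted p = 0.488 and 0.514), ZBTB33 (-0.32, adjusted p = 0.436), and TOP2A (-0.26, adjusted p = 0.345). With Dox over the 4 lines, PCNA rose (log2 fold change 0.36, SE 0.07, edgeR adjusted p = 0.00268) as the 1 maintenance partner of 12 that passed, against 2.11% of all genes. Of the 14 demethylation genes, 3 passed, all lower, against the same 2.11%, of which 213 of 298 genes were lower. GADD45B fell by 0.64 (edgeR adjusted p = 4.65e-05), OGT, a glycosyltransferase that binds TET proteins, by 0.335 (adjusted p = 0.0144) and CXXC5 by 0.31 (adjusted p = 0.0169). GADD45B in WT went from 209 CPM uninduced to 197 CPM induced. The K450R line went from 163 to 89.1 CPM, the K451R line from 131 to 69.6 CPM and the K450RK451R line from 98.7 to 57.1 CPM. The response of the 3 mutant lines minus that of WT was -0.75 on the log2 scale (SE 0.13, edgeR adjusted p = 0.00264), a value that rests on 1 WT line with 1 library a condition, assumed to vary like the mutants. Of the 9 luminal markers checked, 4 passed as higher with Dox and none as lower, against the same 2.11% of all genes. Among the higher ones were TMPRSS2 and HOXB13 (log2 fold change 0.22 and 0.19, edgeR adjusted p = 0.0177 and 0.0492). At an unadjusted p under 0.05, 4 were higher and 3 lower, the latter being KRT8 (-0.20), KRT18 (-0.16) and KLK2 (-0.11). The part of these markers in the other results was not tested.

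Genes known from other work to be silenced by methylation in tumours or somatic cells ranged widely in counts, from none upward. GSTP1 had 4 counts in the induced WT library and none in the other 11, and CDH13 had none in any library, where 3 counts, the limit that a count of 0 allows, come to 0.224 to 0.551 CPM. RASSF1, silenced in part of prostate tumours, was detected throughout at 99 to 878 counts, as were APC, a tumour suppressor, at 179 to 750 counts and the germline gene MAGEA3 at 293 to 728 counts. Counts per gene do not separate transcripts from different promoters, and methylation was not measured, so detection does not tell whether a methylated promoter was active. Of this list of 9 genes 4 were tested and none passed with EHMT1 silencing or with Dox. Of 13 germline genes that promoter methylation keeps silent in somatic cells, 4 were tested and none passed in these 2 comparisons. In the uninduced lines against siNTC, 2 of the first 4 were higher and 2 lower, and 1 of the germline 4 was higher and 1 lower. Over all genes tested, 29.6% were higher and 30.1% lower. RASSF1 was higher by 1.74 on the log2 scale (edgeR adjusted p = 4.98e-10) and APC lower by 1.27 (adjusted p = 3.72e-09). TDRD1, a germline gene also expressed in prostate tumours, had 8, 14, 9 and 1 counts in Veh and 23, 25, 21 and 17 in Dox of WT, K450R, K451R and K450RK451R. It was higher with Dox in each line at very low counts (log2 fold change 1.27, SE 0.41, edgeR adjusted p = 0.109).

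Across the 12 libraries, with each experiment centred on its own mean, DNMT3B and UHRF1 varied most alike among the 8 genes (Pearson r = 0.85 of log2 CPM, n = 12), and UHRF1 and UHRF2 most unlike (r = -0.715). The mean of the S-phase list had r = 0.79 with UHRF1, 0.71 with DNMT3B, 0.64 with DNMT1, 0.63 with TET3 and 0.19 with DNMT3A. Its r was -0.65 with TET2, -0.62 with UHRF2 and -0.455 with TET1. These are descriptions, since libraries of a line share their cells and all share the scaling. The r of other genes with the S-phase mean was not computed. Among 9343 genes with a mean of at least 10 CPM, those most like each gene were USP7 for TET3 (r = 0.96), TAF5 for UHRF2 (0.96), MED18 for DNMT3A (0.955), ZSCAN32 for UHRF1 (0.94), OGFOD1 for DNMT3B (0.93), CCT2 for TET2 (0.93), GTF3C2 for DNMT1 (0.89) and NRAS for TET1 (0.875), each over the same 12 libraries.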

How the data were processed

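RNA-seq counts from 20 samples were used. Per the paper and the labels, the authors made stranded total RNA libraries, sequenced 51 nt single-end reads and mapped them to hg19. The submitters' processing notes name FastQC 0.11.9, STAR 2.7.2 and featureCounts 1.6.4. The deposited values are raw counts per Ensembl gene, not normalized. The annotation release, the strand setting and the treatment of multimapping reads are not given in the sources used here, so genes that overlap, and paralogs, could share reads.

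From these, counts were scaled by TMM, restricted to genes that filterByExpr kept, and tested with edgeR 4.0.16 (quasi-likelihood, R 4.3.3), with Benjamini-Hochberg adjustment over all genes tested and a threshold of 0.05. The siRNA samples were fitted alone. In the stable lines the 2 columns of a condition were summed, and the 4 lines served as replicates of Dox, with line as a term. Where nothing says that samples came from separate cultures, p-values measure only the spread between these samples. Single libraries have 95% exact Poisson, binomial or Clopper-Pearson intervals, which cover counting error only, as do limits from 3 counts. Gene positions are from GENCODE release 44 on GRCh37, by identifier except UHRF1, which was matched by symbol, and lengths from the canonical transcript. Promoters are from RefSeq.

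The genes and lists were chosen with earlier results of these data known. The rule for named genes was the 8, EHMT1, from each list and for siEHMT1 and Dox those with an adjusted p under 0.05 (at most 4, lowest p first) or else the 2 with the lowest p, and the 3 genes most correlated with each of the 8, of which the first is given. The same rule was then used for the uninduced lines against siNTC, a comparison added after the data were seen, as was that between the 4 lines. LIG1, PCLAF, SETD7, HDAC1, CDCA7L, TDG, GSTP1, CDH13, RRM1, CDT1, MKI67 and KRT18 were named after their values were seen. So were TOP2A for the uninduced lines and KRT8 and KLK2 for Dox. Alternatives were DESeq2 1.42.0, limma-voom (limma 3.58.1), other normalizations and filters, the replicate block and leaving out each sample or line. The procedures were tested on simulated data. Some genes that the rule selects are not reported here.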

Additional observations from a re-analysis of the deposited data

Results flagged for a closer look

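Over the 39 sets of 4 lines examined (levels, ratios and shares), 4 had a line far from the others by Dixon's ratio, which chance gives in about 1 of 20 sets. For DNMT1, the log2 ratio of Dox to Veh was -0.10 in K451R and 0.06 to 0.08 in the other 3 lines (Dixon's ratio 0.889). For TET2, the Veh level was 27.4 CPM in K450RK451R and 34.6 to 35.6 CPM in the other lines (ratio 0.874). TET1 made up 14.05% of the 3 TET genes' counts in uninduced K450R and 17.4% to 17.8% in the other lines (ratio 0.878). The log2 ratio of Dox to Veh of EHMT1 was 2.90 in K450RK451R and 3.32 to 3.39 in the other lines (ratio 0.87).

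The Dox response of GADD45B in the mutant lines minus that in WT was -0.75 on the log2 scale (edgeR adjusted p = 0.00264). WT is 1 line with 1 library a condition, assumed to vary like the mutants.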

How the results depend on the processing

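None of the 8 genes passed the test with EHMT1 silencing, with Dox, in the interaction or among the lines under any setting that was run, samples or lines left out included (0 in each). Among the lines, DESeq2 gave no adjusted p for DNMT3B, UHRF1 and TET1, so that setting did not decide on them. The log2 fold changes of the 8 genes with EHMT1 silencing ranged over settings from -0.46 (TET3) to 0.40 (DNMT3B). With Dox they ranged from -0.28 (UHRF2) to 0.34 (UHRF1). Values changed sign in some settings for DNMT1, DNMT3B, UHRF1, TET1 and TET2 with silencing and for DNMT1, DNMT3A, DNMT3B and TET1 with Dox. Counts over all genes moved more. For siEHMT1, 19 genes became 12 with no filter, 118 with the replicate block, and 38 to 110 with 1 sample left out. The replicate numbers of the siRNA samples share only a number (Pearson r = 0.027 between same-numbered deviations over 15909 genes), and the block changed no call among the 8 genes. For Dox, 298 genes became 137 with DESeq2, 4 with no line term and 114 to 501 with a line left out. For the interaction, 23 became 43 with limma-voom, 15 with no filter and 28 to 101 with a line or column left out (101 without K450R, 43 without K450RK451R, 33 without K451R). Between the lines, 430 became 246 with DESeq2 and 252 to 421 with a line left out, 252 without WT. Between uninduced lines and siNTC, with alternatives added after the data were seen, 3 to 8 of the 8 genes passed with a sample left out and 6070 to 8908 of all genes. TET2 passed only without K450RK451R (log2 fold change 0.34, edgeR adjusted p = 0.0146). Without siNTC replicate 1, DNMT3B, UHRF1, UHRF2 and TET1 no longer passed (edgeR adjusted p = 0.408, 0.0559, 0.0854 and 0.0999). The cause of these shifts was not tested. Depth limits the low genes most: the counting interval of TET1 in K450R, from 76 and 137 counts, ran from 1.17-fold to 2.09-fold.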
